A study of Mus musculus with 9 samples.

Results

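The genes described here were lower than in untreated renal cells after TNFα and also lower after TNFα given with ACHP, an inhibitor of NF-κB activation. They were chosen by measured values: a mean of at least 3 CPM (counts scaled to the same library total) in the PBS libraries, every TNFα library and every TNFα with ACHP library below the lowest PBS library, and both treated means at most 87% of the PBS mean. Of 11419 genes with that PBS level, out of 57010 counted, 232 (2.03%) met the rule. Because the rule used both comparisons with PBS, those values are given for the members as a description, with no test. The comparison of TNFα with ACHP against TNFα was not part of the rule and was tested, although the limit on both means narrows the differences that a member can show. Without PBS replicate 1, 441 genes met the rule.

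The cells came from wild-type mice and are known as primary cultured renal cells, a mixed culture grown from enzymatically digested whole kidney. There were 3 groups of 3 libraries, all collected after 6 h. The first group received PBS, the second TNFα at 20 ng/mL, and the third TNFα at 20 ng/mL with ACHP at 1 µM. No group received ACHP alone, so what ACHP does without TNFα was not measured. Age and sex of the mice are not given in the labels, nor whether the 3 libraries of a group come from separate animals or cultures, so p-values measure only the spread between these libraries.

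TNFα binds its receptors and activates the IκB kinase complex and the MAP kinases. IκB kinase releases NF-κB, which switches on inflammatory genes, and NF-κB is known mainly as an activator. Cultured tubular cells are known to lose transporters and other differentiated features, and inflammatory cytokines act on the same kinds of gene.

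Library totals were between 14194295 and 20892176 counts. Of the markers of kidney cell types, Slc22a6, Miox and Acsm2 of the proximal tubule and Aqp2 of the collecting duct had no count in any library, while the summed collecting duct list lay between 1411 and 1429 CPM with PBS, 1300 and 1308 CPM with TNFα, and 1403 and 1482 CPM with TNFα and ACHP. A list of neuron markers summed to 23.8 CPM in PBS replicate 1, 111 and 95.4 CPM in PBS replicates 2 and 3, 48.4 to 84.7 CPM with TNFα and 21.9 to 22.7 CPM with TNFα and ACHP. The rule leaves out genes that follow that pattern fully, since their TNFα libraries lie above PBS replicate 1. Genes with neural RNA as only a part of their value could still pass, and that part was not tested. With PBS replicate 1 as the only PBS library, 170 members still met the rule. All members' treated libraries lay below that library by selection, so only the ratio and level limits could remove members there. In the same libraries Vcam1, the adhesion molecule the study is about, had means of 19.3 ± 1.25 CPM with PBS, 92.5 ± 6.94 with TNFα and 21.0 ± 2.66 with TNFα and ACHP (SD, n = 3).

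The members' TNFα means had a median of 78.3% of the PBS mean, and their TNFα with ACHP means a median of 77.2%. The mean of both ratios was above 0.8 for 82 members, between 0.7 and 0.8 for 106, between 0.5 and 0.7 for 40 and at most 0.5 for 4. The nearest genes inside the ratio limit were Map4k3 at 86.97% and Ntm at 86.98%, and the nearest outside were Mr1 at 87.04% and Rbms3 at 87.07%. At the expression limit, Colec12 was inside with a PBS mean of 3.027 CPM and Fras1 outside with 2.979 CPM. Without the limit on ratios, both treated groups lay below every PBS library for 592 genes (5.18%), and the opposite rule, both groups above PBS, found 89 (0.779%). Judged alone, TNFα was below PBS by the rule for 668 genes (5.85%) and TNFα with ACHP for 573 (5.02%). By the edgeR quasi-likelihood fit over 14747 genes, 124 members (53.4%) were called lower with TNFα, where 2.91% of all genes tested were. With TNFα and ACHP 137 members (59.1%) were called lower, where 3.87% of all were. The rule selected on these same contrasts, so nothing is read from those counts.

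**Figure D1:**
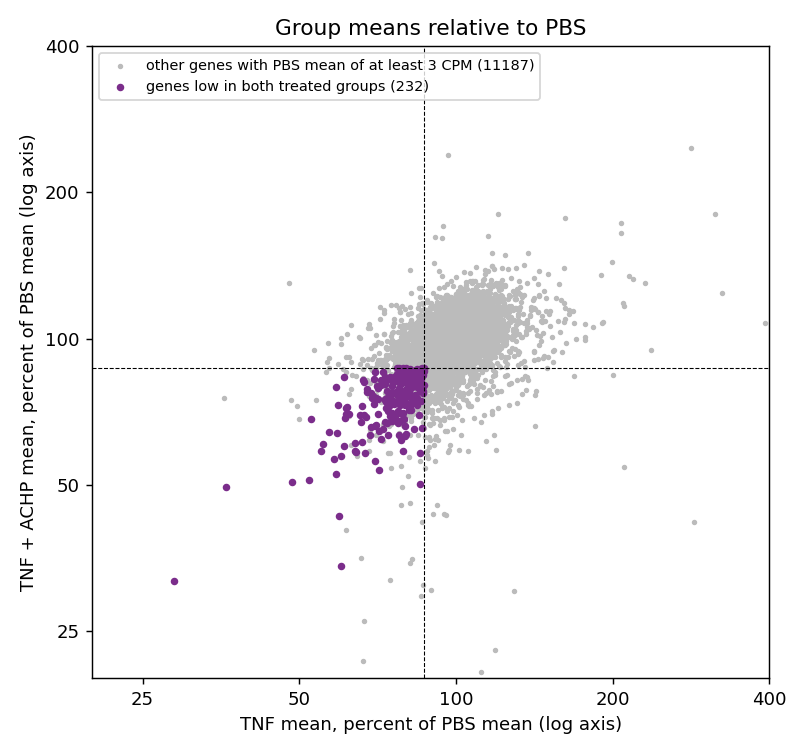
Each point is a gene with a PBS mean of at least 3 CPM, with its TNFα mean on the x axis and its TNFα with ACHP mean on the y axis, both as percent of the PBS mean on log axes. The 232 members lie in the lower left corner by the rule, bounded by the dashed lines at 87%. Grey points in that corner had overlapping libraries, and 27 genes fall outside the axes.

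Members with the lowest treated means included genes known from several epithelia. Elf5 (ENSMUSG00000027186, chromosome 2, 103242033 to 103281334 on GRCm39), a transcription factor of collecting duct and glandular epithelium, had 5.28, 5.86 and 6.13 CPM with PBS, 1.91, 1.99 and 2.36 CPM with TNFα, and 2.43, 3.21 and 2.92 CPM with TNFα and ACHP. Every treated library was well under every PBS library, at means of 36.2% and 49.6% of PBS, and the TNFα with ACHP libraries lay above the TNFα libraries. The log2 fold change between those 2 treated groups was 0.46 (SE 0.20), with an adjusted p of 0.18, so the difference did not pass the test. Psca, a surface antigen of urothelium and other barrier epithelia, had 5.42, 5.36 and 7.44 CPM with PBS against 2.40, 2.98 and 3.44 CPM with TNFα and 2.86, 3.25 and 3.11 CPM with TNFα and ACHP. Its TNFα with ACHP libraries all lay within the range of the TNFα libraries. The other 7 urothelium markers summed to 67 to 76 CPM with PBS and 75.9 to 77.9 CPM with TNFα. With TNFα and ACHP that sum was 64.4 to 70.7 CPM. Chdh, which oxidises choline to betaine aldehyde in mitochondria, had 12.8, 12.7 and 11.9 CPM with PBS, 6.83, 7.75 and 7.46 with TNFα, and 5.53, 7.90 and 6.29 with TNFα and ACHP. Its means were 58.9% and 52.7% of PBS, with treated groups that overlapped.

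Igfbp5, a secreted binding protein for insulin-like growth factors, had 14.9, 26.7 and 14.8 CPM with PBS, 10.0, 13.7 and 10.0 CPM with TNFα, and 7.54, 8.90 and 7.94 CPM with TNFα and ACHP. Its PBS mean rests in part on PBS replicate 2, and its highest TNFα library lay close under the other PBS libraries. Erbb4, a receptor for neuregulins and other EGF-family ligands, had 15.5, 16.9 and 18.4 CPM with PBS, 10.0, 10.7 and 11.8 CPM with TNFα, and 8.69, 12.3 and 8.83 CPM with TNFα and ACHP. Its treated groups overlapped, at 64.0% and 58.6% of PBS.

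**Figure D2:**
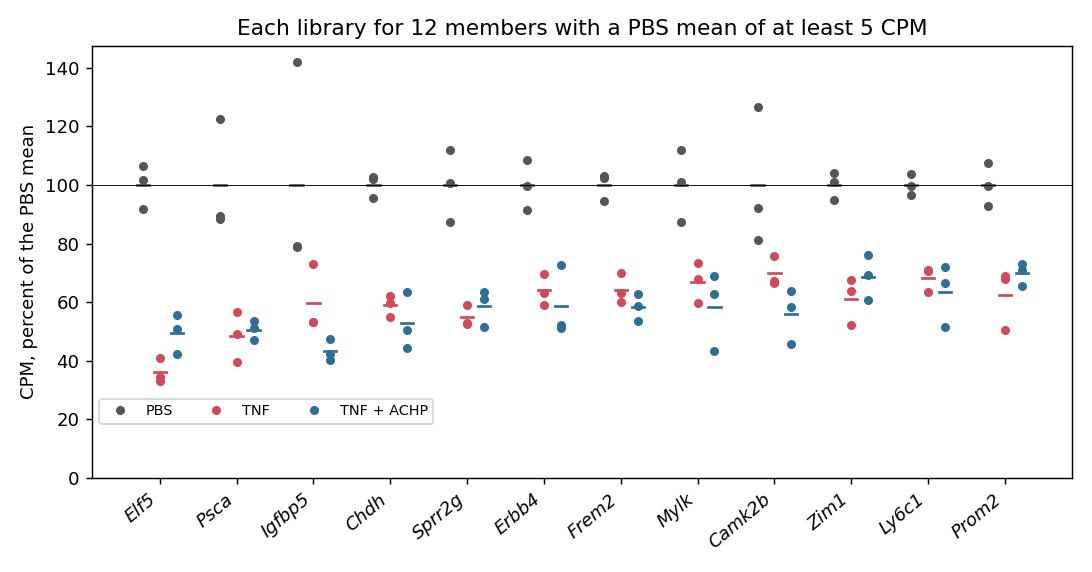
The y axis gives each library's CPM as percent of the gene's PBS mean for the 12 members, with a PBS mean of at least 5 CPM and a regular gene name, whose treated means were lowest relative to PBS. Points are libraries and short lines group means. PBS replicate 2 stands far above the other PBS libraries for Igfbp5 and Camk2b, and the treated groups overlap for most genes.

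Sequences just around the annotated start are shown for Elf5, Igfbp5, Chdh and Erbb4, the leading members with an entry in the RefSeq promoter table, because the shares given next count motifs in such windows. Each window covers 250 bases before to 50 bases after the start on GRCm38.p6: chr2:103411848-103412147 on the plus strand for Elf5, chr1:72874816-72875115 on the minus strand for Igfbp5, chr14:30008750-30009049 on the plus strand for Chdh, and chr1:69108010-69108309 on the minus strand for Erbb4. Capitals mark matches to any of 9 motifs searched on both strands.
Elf5: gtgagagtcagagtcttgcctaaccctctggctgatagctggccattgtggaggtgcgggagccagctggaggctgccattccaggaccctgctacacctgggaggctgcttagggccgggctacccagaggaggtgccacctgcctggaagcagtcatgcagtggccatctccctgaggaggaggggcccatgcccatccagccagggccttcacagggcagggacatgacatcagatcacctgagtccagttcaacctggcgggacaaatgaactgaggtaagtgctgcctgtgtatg
Igfbp5: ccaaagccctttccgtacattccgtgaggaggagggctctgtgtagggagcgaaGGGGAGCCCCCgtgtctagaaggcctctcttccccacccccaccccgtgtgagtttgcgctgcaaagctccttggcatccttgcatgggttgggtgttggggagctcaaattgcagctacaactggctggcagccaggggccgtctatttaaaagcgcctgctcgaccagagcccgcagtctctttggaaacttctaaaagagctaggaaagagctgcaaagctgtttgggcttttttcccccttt
Chdh: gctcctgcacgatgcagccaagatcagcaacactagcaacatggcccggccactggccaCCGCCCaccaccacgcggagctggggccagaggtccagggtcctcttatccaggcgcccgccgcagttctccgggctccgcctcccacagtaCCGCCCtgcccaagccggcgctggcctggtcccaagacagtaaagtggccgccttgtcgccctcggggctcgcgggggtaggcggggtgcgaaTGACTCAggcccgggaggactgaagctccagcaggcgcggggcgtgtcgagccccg
Erbb4: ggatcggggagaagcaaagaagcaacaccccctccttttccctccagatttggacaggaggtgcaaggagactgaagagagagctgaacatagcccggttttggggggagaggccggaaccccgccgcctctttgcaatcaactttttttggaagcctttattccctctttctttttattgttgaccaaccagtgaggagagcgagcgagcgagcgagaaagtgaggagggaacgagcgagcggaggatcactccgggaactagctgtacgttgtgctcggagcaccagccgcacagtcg
The Igfbp5 window held overlapping matches to the NF-κB consensus at -196 and -195 from the start. The Chdh window held GC box matches at -191 and -99 and an AP-1 match at -6. No searched motif was found in the Elf5 or Erbb4 window shown. Elf5 has 2 annotated windows and Chdh 3, and only the most upstream is shown for each.

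Of the 232 members, 170 matched the RefSeq table by symbol, with 244 windows. The NF-κB consensus was in 14.3% of the members' windows, 10.3% of the windows of all genes at the same PBS limit, 6.24% of those of the 436 genes low with TNFα but not with ACHP, and 8.46% of all 32851 windows. The ETS core CCGGAAG was in 5 of the 244 windows (2.05%), against 18.2% for genes at the PBS limit, 9.70% for the 436 genes and 8.86% for all. AP-1 (TGANTCA) matches were in 6.56% against 4.89%, 5.77% and 7.81%, in the same order. The GC box (GGGCGG) was in 53.3% against 64.2%, 63.3% and 35.7%, and the NRF1 motif in 6.15% against 13.5%, 8.55% and 6.23%. For CRE (TGACGTCA) the shares were 1.23%, 3.14%, 2.54% and 1.79%, for the E-box (CACGTG) 6.15%, 9.94%, 8.08% and 7.15%, for TATAAA 10.2%, 6.69%, 5.77% and 13.6%, and for CCAAT 33.6%, 37.4%, 39% and 37.4%. These are letter matches, counted over windows of which some belong to the same gene, and no test was made on them.

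The members were sorted by hand into 13 roles with their values known, which placed 183 of them. Podocyte and nephron segment genes made up 16 members, with median means of 72.1% of PBS with TNFα and 74.1% with TNFα and ACHP. Ggt1, a brush border enzyme that starts the breakdown of glutathione outside the cell, had 27.3, 26.6 and 28.4 CPM with PBS, 17.1, 18.5 and 19.6 with TNFα, and 17.7, 20.3 and 18.7 with TNFα and ACHP. Its treated groups overlapped, with a log2 difference of 0.04 (SE 0.08). Pkhd1, the fibrocystin gene of polycystic kidney disease, had 180, 169 and 176 CPM with PBS, 144, 138 and 151 with TNFα, and 137, 128 and 125 with TNFα and ACHP. Plce1, a phospholipase needed by podocytes, stood at 85.1% and 78.1% of PBS, and Gpx3, the secreted glutathione peroxidase of proximal tubule, at 77.9% and 86.9%. In a bulk culture, fewer cells of a type and less RNA per cell cannot be told apart.

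Ion and solute transport counted 15 members, at median means of 74.3% and 73.1% of PBS. Among them were subunits of the epithelial sodium channel, which reabsorbs sodium in the distal nephron. Scnn1a, its alpha subunit, had 43.1, 45.8 and 45.2 CPM with PBS, 28.6, 31.3 and 34.9 with TNFα, and 33.3, 37.0 and 36.8 with TNFα and ACHP. Scnn1b, its beta subunit, had 5.14, 4.91 and 5.20 CPM with PBS, 3.01, 2.98 and 3.06 with TNFα, and 3.71, 3.25 and 4.19 with TNFα and ACHP. Scnn1b libraries with TNFα and ACHP all lay above those with TNFα, but the log2 fold change of 0.29 (SE 0.17) had an adjusted p of 0.36. Kcnj16, an inward rectifier potassium channel subunit of the basolateral membrane, had 67.2, 73.0 and 71.0 CPM with PBS, 52.2, 52.5 and 52.2 with TNFα, and 49.2, 56.8 and 54.4 with TNFα and ACHP. Its TNFα libraries were nearly equal and lay inside the range of the TNFα with ACHP libraries. Atp11a, a phospholipid flippase, had means of 749 ± 12.8, 645 ± 14.4 and 643 ± 18.1 CPM (SD, n = 3). Solute carriers Slc35f5, Slc16a10 and Slc25a23 were between 77.5% and 86.0% of PBS in both groups.

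Among 11 collecting duct markers tested, 5 were called lower and 1 higher with TNFα, and the same numbers with TNFα and ACHP, where over all genes 3.31% and 2.18% were called higher. The list's median log2 fold changes against PBS were -0.25 and -0.45, beside medians of 0 over all genes. The summed list without its members went differently from the median with ACHP, at 1358 to 1372 CPM with PBS, 1264 to 1274 CPM with TNFα and 1360 to 1438 CPM with TNFα and ACHP. Such a sum is carried by its most abundant genes, so it does not stand for each marker. The list includes Krt18, a keratin and its only gene called higher with TNFα and ACHP than with TNFα. In each list given here and further on, the members were selected by the rule on these same contrasts, so their calls add nothing to it. Here Elf5 and Scnn1a are in both counts and Scnn1b in the first. Aqp4, a water channel called lower with TNFα and ACHP, is also on the list of astrocyte and oligodendrocyte markers, which summed to 127 to 247 CPM with PBS, 167 to 196 CPM with TNFα and 114 to 118 CPM with TNFα and ACHP. The part of neural RNA in its value was not tested. Of the markers that are not members, Cldn8, a claudin of the collecting duct, fell with TNFα by 1.01 on the log2 scale (SE 0.19, adjusted p 0.0023) and did not pass the test with ACHP (log2 fold change -0.54, adjusted p 0.087). Hsd11b2, which inactivates glucocorticoids in mineralocorticoid target cells, went the other way, with log2 fold changes of 0.59 and 0.44 (adjusted p 0.001 and 0.012). Of 24 ion channels and pumps of tubular epithelium, 5 were called lower with TNFα and 4 with TNFα and ACHP, none higher, with members Scnn1a and Kcnj16 in both counts and Scnn1b in the first. Of 18 proximal tubule markers only 5 had enough counts to test. Over all lists 105 genes were called lower with TNFα and ACHP against PBS, and 25 were when a term for the 5 libraries richest in neuron markers was added.

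**Figure D3:**
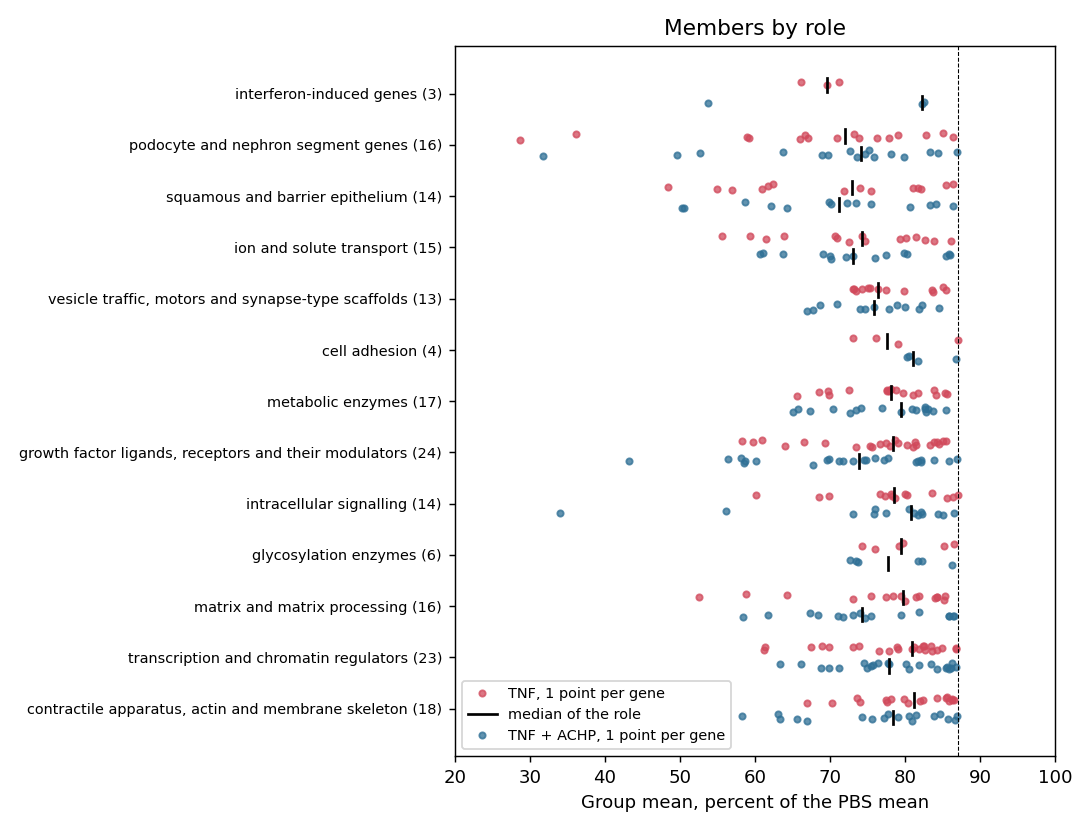
The x axis gives each member's group mean as percent of its PBS mean, by role, with the number of members in brackets. Red points are TNFα, blue points TNFα with ACHP, and black lines role medians. Role medians lie between 69.6% and 82.2% and the dashed line is the rule's limit of 87%.

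Squamous and barrier epithelium genes made up 14 members, at median means of 72.9% and 71.2%. Ivl encodes involucrin of the cornified envelope, and was called higher with ACHP than with TNFα. It had 29.5, 28.0 and 26.5 CPM with PBS, 17.3, 16.0 and 17.9 with TNFα, and 23.3, 21.6 and 25.2 with TNFα and ACHP. All TNFα with ACHP libraries lay between those of TNFα and PBS, and the rise over TNFα was 0.44 on the log2 scale (SE 0.08, adjusted p 0.0014). Anxa8, a membrane-binding annexin of squamous epithelium, went the other way, with 12.3, 10.8 and 11.5 CPM with PBS, 10.1, 9.74 and 9.63 with TNFα, and 5.17, 5.22 and 6.99 with TNFα and ACHP. Its TNFα libraries were just under PBS and its TNFα with ACHP libraries far below both, a fall against TNFα with a log2 fold change of -0.78 (SE 0.12, adjusted p 0.00037). Sprr2g, a small proline-rich envelope protein of a multigene family whose reads may be split, had means of 15.2 ± 1.83, 8.35 ± 0.559 and 8.91 ± 0.943 CPM. Prom2, a membrane protein of epithelial protrusions, had 7.22 ± 0.540, 4.51 ± 0.750 and 5.05 ± 0.273 CPM (SD, n = 3). The list of keratins, 14 tested, holds no member and had none called lower against PBS. Krt16 was called higher with TNFα, and Krt16, Krt17 and Krt19 were called higher with TNFα and ACHP.

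Transcription and chromatin regulators numbered 23, at median means of 80.9% and 77.9%. Id2, an inhibitor of basic helix-loop-helix factors and a target of BMP signalling, had 53.9, 58.0 and 66.2 CPM with PBS, 39.5, 43.9 and 39.3 with TNFα, and 42.9, 50.1 and 41.5 with TNFα and ACHP. Lhx1, a homeodomain factor of the developing nephron, had 24.9, 25.6 and 24.0 CPM with PBS, 18.5, 19.4 and 19.1 with TNFα, and 20.2, 21.9 and 18.9 with TNFα and ACHP. For both genes the treated groups overlapped. Tcf7l2, the factor that binds β-catenin in the Wnt pathway, was at 73.0% and 74.9% of PBS, and Esrrg, an orphan nuclear receptor of mitochondrial metabolism, at 81.9% and 71.2%. The zinc finger genes Zim1, Zfp169 and Zfp467 were between 61.2% and 82.5% in both groups. Of 25 kidney lineage transcription factors tested, 6 were called lower with TNFα and 5 with TNFα and ACHP, none higher, with median log2 fold changes of -0.12 and -0.07. Members Lhx1 and Elf5 are in both counts and Esrrg in the second. Pou3f3, a factor of distal tubule development and no member, fell in both, with log2 fold changes of -0.28 (SE 0.05, adjusted p 0.0015) and -0.19 (SE 0.05, adjusted p 0.025).

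Growth factor ligands, receptors and their modulators were the role with most members, 24, at medians of 78.3% and 73.8%. Igf1r, the receptor for insulin-like growth factor, had 306, 304 and 310 CPM with PBS, 262, 243 and 266 with TNFα, and 260, 284 and 246 with TNFα and ACHP. Fgfr2, a fibroblast growth factor receptor of epithelium, had 61.3, 64.1 and 65.0 CPM with PBS, 48.8, 52.3 and 53.9 with TNFα, and 51.7, 52.3 and 52.2 with TNFα and ACHP. Neither receptor differed between the treated groups beyond their spread (log2 fold changes 0.03, SE 0.04, and 0.01, SE 0.05). The ligand Bmp7, which maintains tubular epithelium, stood at 80.2% and 86.9% of PBS. Ppbp, a platelet-type chemokine, stood at 83.3% and 82.1%. Notch3, the Notch receptor of mural cells, was at 66.5% and 81.4%, and Ror1, a receptor for Wnt ligands, at 81.3% and 83.9%. Ptger3, the prostaglandin E receptor of the distal nephron, was at 61.0% and 60.2%. The list of growth factor and cytokine receptors, 37 tested, had 4 called higher and 1 lower with TNFα. With TNFα and ACHP 1 was called higher and 4 lower. The list medians were 0.01 and -0.12, and the member Erbb4 is in both counts of lower genes. The others called lower with TNFα and ACHP, Ntrk2, Ntrk3 and Prlr, are no members. The part of neural RNA in their values was not tested.

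Of 30 Wnt pathway genes tested, 5 were called lower and none higher with TNFα, and 6 lower and 2 higher with TNFα and ACHP, with list medians of -0.07 and -0.01. All genes called lower with TNFα are members apart from Fzd4, and with TNFα and ACHP apart from Fzd4 and Wnt5a. The members were Lgr4, the R-spondin receptor, at 75.3% and 81.7% of PBS, Tcf7l2, and the secreted modulators Sfrp1 at 75.6% and 77.2% and Dkk3. Fzd4, a Frizzled receptor that is no member, fell in both comparisons, with log2 fold changes of -0.17 (SE 0.04, adjusted p 0.019) and -0.24 (SE 0.04, adjusted p 0.0018). Of 19 insulin and IGF pathway genes, 3 were called lower with TNFα and 2 with TNFα and ACHP, all of them members (Igf1r and Igfbp5) apart from Igfbp2 with TNFα. Igfbp2 fell with TNFα with a log2 fold change of -0.65 (SE 0.09, adjusted p 6e-05) and rose again by 0.40 with ACHP over TNFα (SE 0.09, adjusted p 0.0074).

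Csf1r, the receptor for colony stimulating factor on macrophages, fell with ACHP relative to TNFα. It had 12.9, 13.7 and 15.9 CPM with PBS, 11.6, 11.9 and 12.7 with TNFα, and 8.75, 8.28 and 7.69 with TNFα and ACHP, a log2 fold change against TNFα of -0.55 (SE 0.10, adjusted p 0.0019). The TNFα libraries lay just under PBS and the TNFα with ACHP libraries stood apart below them. The other 16 macrophage and dendritic cell markers summed to 36.9 to 41.1 CPM with PBS and 41.1 to 43.8 CPM with TNFα. With TNFα and ACHP that sum was 18.7 to 22.7 CPM. Of 14 tested markers on the whole list, 9 were called lower with TNFα and ACHP against PBS and none with TNFα. The member Csf1r is in that count of 9. The part of these cells in the Csf1r value was not tested, and 15.1% of its exon length overlaps another gene.

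Matrix and matrix processing genes were 16, at medians of 79.8% and 74.3%. Thbs1, thrombospondin, a matricellular protein that activates TGF-β, held most counts of any member, with 7290, 7271 and 7366 CPM with PBS, 6179, 6060 and 6435 with TNFα, and 6274, 6511 and 6153 with TNFα and ACHP. Col1a1 and Col1a2 encode the chains of type I collagen. Col1a1 had 146, 141 and 159 CPM with PBS, 111, 108 and 117 with TNFα, and 109, 113 and 110 with TNFα and ACHP, so its treated groups overlapped. Col1a2 had 78.1, 80.1 and 81.8 CPM with PBS, 67.5, 64.8 and 69.0 with TNFα, and 58.4, 60.5 and 58.7 with TNFα and ACHP, a fall against TNFα with a log2 fold change of -0.18 (SE 0.04, adjusted p 0.015). The paired chains thus had unequal values between the treated groups, with a log2 fold change of -0.02 (SE 0.05) for Col1a1, and the difference between the chains was not tested. Col5a1, a fibril-nucleating collagen, stood at 81.5% and 85.8% of PBS, Fbln5, an elastic fibre protein, at 73.0% and 67.3%, and Frem2, a basement membrane protein of the developing kidney, at 64.3% and 58.4%. Thbs2 had 5.57, 5.30 and 5.31 CPM with PBS, 2.90, 3.11 and 3.51 with TNFα, and 4.98, 5.07 and 2.79 with TNFα and ACHP. TNFα with ACHP replicates 1 and 2 lay close under PBS, and replicate 3 stood apart far below them. Its mean of 79.4% of PBS with TNFα and ACHP thus rests largely on replicate 3. Thbs2 was not called lower with TNFα and ACHP against PBS.

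Of 31 collagen and collagen processing genes tested, 8 were called lower and 2 higher with TNFα, and 11 lower and 2 higher with TNFα and ACHP, with list medians of -0.07 and -0.12. Members Col1a1, Col1a2, Col5a1 and Pcolce are in both counts of lower genes. Col4a3 and Col4a5, type IV collagen chains of the glomerular basement membrane, are no members. Col4a5 fell with log2 fold changes of -0.27 (SE 0.04, adjusted p 0.00049) and -0.19 (SE 0.04, adjusted p 0.009), and Col4a3 with -0.17 (SE 0.04, adjusted p 0.0063) and -0.18 (SE 0.04, adjusted p 0.003). Fibroblast and pericyte markers without the members summed to 89.2 to 89.8 CPM with PBS, 80.9 to 87.1 with TNFα and 65.1 to 76.0 with TNFα and ACHP. Their part in the matrix and contractile values was not tested.

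Contractile, actin and membrane skeleton genes were 18, at medians of 81.2% and 78.4%. Acta2, smooth muscle actin, had 557, 599 and 660 CPM with PBS, 514, 526 and 530 with TNFα, and 432, 469 and 500 with TNFα and ACHP. Its log2 fold change between treated groups was -0.17 (SE 0.05, adjusted p 0.049), and the groups did not overlap. Myl9, a regulatory light chain of smooth muscle myosin, had 36.2, 38.7 and 43.9 CPM with PBS, 33.8, 34.5 and 34.1 with TNFα, and 25.6, 24.9 and 27.4 with TNFα and ACHP. It fell with ACHP with a log2 fold change of -0.40 (SE 0.07, adjusted p 0.00097), from TNFα libraries that were tightly grouped just below PBS. Cnn1, calponin, had 43.6, 43.4 and 47.1 CPM with PBS, 29.6, 31.3 and 33.4 with TNFα, and 33.6, 31.2 and 36.5 with TNFα and ACHP, with overlapping treated groups. Mylk, the kinase that activates that light chain, was at 66.9% and 58.3% of PBS, and Ahnak, a giant scaffold protein under the membrane, at 82.4% and 80.5%. Of 19 contractile genes tested, 4 were called lower with TNFα, and 5 lower and 1 higher with TNFα and ACHP. All those called lower are members apart from Tpm2, a tropomyosin, which fell with log2 fold changes of -0.20 (SE 0.05, adjusted p 0.015) and -0.18 (SE 0.05, adjusted p 0.031).

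Metabolic enzymes numbered 17, at medians of 78.1% and 79.5%. Ugt8a, which makes galactosylceramide, had 47.7, 49.8 and 53.1 CPM with PBS, 32.4, 37.7 and 35.3 with TNFα, and 42.2, 45.6 and 41.0 with TNFα and ACHP, and rose with ACHP over TNFα by 0.29 on the log2 scale (SE 0.06, adjusted p 0.0068). Its TNFα with ACHP libraries lay between the other groups. Gclm, the modifier subunit of the enzyme that starts glutathione synthesis, stood at 85.3% and 82.8% of PBS. Of 19 glutathione and conjugation enzymes tested, 7 were called lower with TNFα and 5 with TNFα and ACHP, none higher, with list medians of -0.16 in both. Members Ggt1, Gclm and Gstm1 are in both counts and Gpx3 in the first. Of those that are no members, Gsr, glutathione reductase, fell with log2 fold changes of -0.19 (SE 0.03, adjusted p 0.0011) and -0.13 (SE 0.03, adjusted p 0.027), and Gstm2, of a gene family with near-identical copies, with -0.38 (SE 0.10, adjusted p 0.033) and -0.36 (SE 0.10, adjusted p 0.038).

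The signalling role held 14 members, at medians of 78.5% and 80.9%. Map3k1 and Map3k5, kinases at the head of the JNK and p38 cascades, were at 86.4% and 85.1% and at 83.6% and 82.1% of PBS. The list of MAP kinases and AP-1 factors, 32 tested, had 2 called higher and 1 lower with TNFα. With TNFα and ACHP 7 were called higher and 1, the member Map3k1, lower. Camk2b, a calcium and calmodulin dependent kinase subunit, had 8.74, 13.6 and 9.91 CPM with PBS, 7.21, 7.15 and 8.16 with TNFα, and 4.92, 6.27 and 6.86 with TNFα and ACHP. PBS replicate 2, which also held most neuron marker counts, was again the highest, and the part of neural RNA in this value was not tested. Of 30 genes of the NF-κB pathway and its feedback, none was a member, and 13 were called higher and none lower with TNFα, and 4 higher and none lower with TNFα and ACHP.

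Interferon-induced genes were 3 members. Ifit3 and Ifit3b, near-identical copies whose reads may be split, had 41.1 ± 4.36 and 16.8 ± 1.43 CPM with PBS, 28.6 ± 3.79 and 11.2 ± 0.839 with TNFα, and 33.9 ± 2.67 and 13.8 ± 1.25 with TNFα and ACHP (SD, n = 3). Their log2 fold changes between treated groups were 0.25 (adjusted p 0.1) and 0.31 (adjusted p 0.059). The role with vesicle, motor and synapse-type scaffold genes counted 13, at 76.4% and 75.8%. The part of neural RNA in their values was not tested. Glycosylation enzymes counted 6, at 79.5% and 77.7%, and cell adhesion 4, at 77.6% and 81.1%. The last includes Pecam1, the junction protein of endothelium, at 73.1% and 80.5%. The other 9 endothelial markers summed to 34.2 to 39 CPM with PBS and 33.5 to 38.9 CPM with TNFα. With TNFα and ACHP they summed to 29 to 33 CPM. On that list of 10 genes tested, none was called with TNFα, and only Emcn, lower, with TNFα and ACHP. No role was assigned to 49, whose TNFα means spanned 52.3% to 86.6% of PBS. Among them, Ly6c1, a GPI-anchored surface protein with a close paralog, had 5.65 ± 0.193 CPM with PBS, 3.86 ± 0.247 with TNFα and 3.59 ± 0.595 with TNFα and ACHP (SD, n = 3).

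Between the treated groups most members did not differ beyond their spread. Of 232 members, 2 rose with ACHP over TNFα (0.862%, where 2.71% of all genes tested did) and 7 fell (3.02%, where 4.46% of all did), while 40 had an unadjusted p under 0.05. The median log2 fold change was -0.02, beside 0 over all genes. Libraries of the 2 groups overlapped for 192 members, lay all above for 13 (5.60%, against 15.1% of the 11419 genes at the PBS limit) and all below for 27 (11.6%, against 12.2%). The rule removes any gene that ACHP brings back close to PBS, so low shares of members rising or lying all above follow largely from selection. The genes tested also include genes under the PBS limit and genes with the neuron pattern, which the rule leaves out. Nothing is therefore read from the shares of members beside those of all genes. The members called were Ivl and Ugt8a upward and Anxa8, Csf1r, Myl9, Parm1, Col1a2, Pkhd1 and Acta2 downward. Parm1, a mucin-like membrane protein, fell with a log2 fold change of -0.22 (SE 0.06, adjusted p 0.035), and Pkhd1 with -0.15 (SE 0.05, adjusted p 0.045). Ivl, Anxa8, Csf1r and Myl9 kept an adjusted p of at most 0.015 whichever single library was left out, and the others lost their call without at least 1 library. The count lower was 3 without TNFα replicate 1, 4 without TNFα replicate 2 and 3 without TNFα replicate 3. The count higher was 1 without TNFα replicate 1 or without TNFα with ACHP replicate 2, and 4 without TNFα replicate 3 or without TNFα with ACHP replicate 1. With the term for neuron-rich libraries, which no ACHP library carries and all TNFα libraries do, only Anxa8 kept its call.

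**Figure D4:**
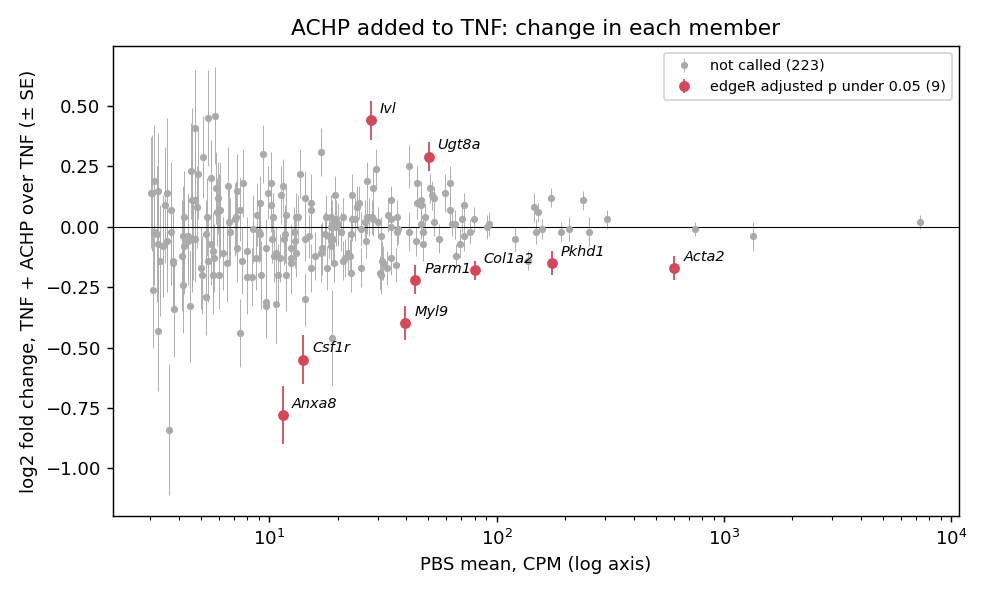
The y axis gives each member's log2 fold change of TNFα with ACHP over TNFα with its standard error, and the x axis its PBS mean in CPM on a log axis. Red points are the 9 members with an edgeR adjusted p under 0.05. Most of the 223 others lie close to 0, with wider errors at low counts.

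The annotated span of the members, from first to last exon, had a median of 52716 bp on GRCm39, and 77 (33.2%) spanned over 100 kb, where the 11419 genes had a median of 25196 bp and 1577 (13.8%) over 100 kb. The share was 33.7% against 12.9% for PBS means of 3 to 10 CPM, 32.4% against 12.4% for 10 to 50 CPM and 34.2% against 15.8% from 50 CPM. Among the 436 genes low with TNFα but not with ACHP, the median span was 27112 bp and 14.9% spanned over 100 kb, and among the 89 genes above PBS in both groups 11.2% did. The longest members were Fgfr2 at 2961 kb as annotated, Dmd, the dystrophin gene, at 2257 kb, and Naaladl2 at 1346 kb. Erbb4 spans 1076 kb. Exon length differed less, with medians of 5761 and 4681 bases, and 96.1% of members with a gene type were protein coding, as were 96.9% of all. The rule did not use gene length, and no test was made over the list.

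**Figure D5:**
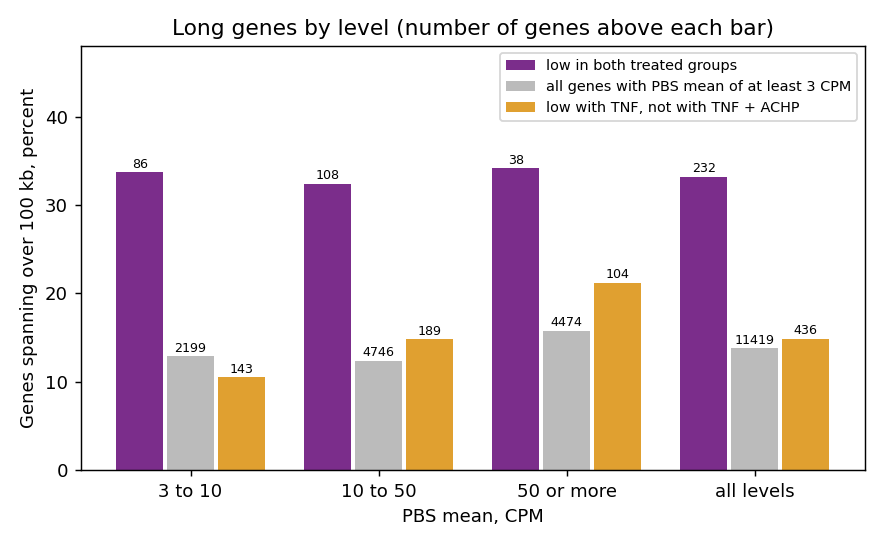
Bars starting at 0 give the percent of genes whose annotated span exceeds 100 kb, by PBS mean in CPM, with the number of genes above each bar. Members (purple) stand at 32.4% to 34.2% in every band, all genes at the PBS limit (grey) at 12.4% to 15.8%, and genes low with TNFα but not with ACHP (orange) at 10.5% to 21.2%.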

How the data were processed

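RNA sequencing was done on 9 libraries of primary cultured renal cells. Per the file headers, the authors counted reads per Ensembl 109 gene on GRCm39 with featureCounts 2.0.1, and the deposited values are raw counts that were not normalized. The submitters' processing notes name STAR, featureCounts, DESeq2 and mm10. Reads shared by genes are not counted at the stated settings, and 14 members share over 10% of their exon length with another gene. Groups come from the sample titles. Symbols were matched for 52029 identifiers, which hold 99.6% of counts.

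CPM values are counts scaled by the library total. EdgeR 4.0.16 in R 4.3.3 was fitted to all 9 libraries with TMM factors, its default filter for low counts (14747 genes kept), a mean per group and the quasi-likelihood test, with Benjamini-Hochberg adjustment over all genes tested. The common dispersion gave a coefficient of variation of 4.01%. The fit was tested on simulated data.

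The members and lists were chosen with earlier results of these data known, and roles were assigned with values known. Genes named are the 12 with the lowest treated means at a PBS mean of at least 5 CPM, the 6 with most counts, up to 5 called per direction between the treated groups, up to 3 with the highest PBS mean in each list, and those at the rule's edges. Members outside this rule, such as Dkk3, Gstm1, Pcolce, Ifit3, Ifit3b, Dmd and Naaladl2, were named after their values were seen. Alternatives changed the scaling, ratio and level limits, filter, test and libraries. Values of 2 members are not reported here.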

Additional observations from a re-analysis of the deposited data

How the results depend on the processing

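The number of members moved most with the rule itself: it was 104 with a ratio limit of 0.8, 592 with no ratio limit, 146 with a PBS mean of at least 10 CPM, 447 when overlap was allowed, and 492 with PBS replicate 1 as the only PBS library. Leaving out 1 library gave 235 to 441, the highest without PBS replicate 1. TMM scaling gave 212, DESeq2 size factors 213, a limit of 0.9 gave 317, a PBS mean of at least 1 gave 290 and thinned counts 227. For members higher with ACHP than with TNFα (2), the count was 6 with no filter, 5 with the replicate block, 0 with the neural library term, 4 with a neuron list covariate, 5 with the 6 libraries compared alone, and 1 to 4 leaving out 1 library. For members lower (7), it was 1 with the neural library term, 1 with the neuron list covariate, 3 at an adjusted p under 0.01, and 3 to 6 leaving out 1 library, while the replicate block gave 8 and DESeq2 gave 5. With the neural library term, list genes lower with TNFα and ACHP went from 105 to 25, while those lower with TNFα went from 80 to 91. That term marks PBS replicates 2 and 3 and all TNFα libraries, so against TNFα it is estimated from the PBS libraries alone. The cause was not tested. Deviations of same-numbered libraries from their group means had correlations from -0.1 to 0.174, and those of differently numbered libraries from -0.211 to 0.173. With 3 libraries per group, these values cannot show whether a replicate number stands for a shared animal or culture. Against PBS, none of the changes of the 63 named members reversed under the scalings, the block, the neural term or leaving out 1 library. Between the treated groups a reversal was recorded only for members called, and none of those reversed. Sign changes of members not called were not counted. Under the neural term, however, the value against PBS with TNFα and ACHP moved for 15 of the 63, and 8 lost their call between the treated groups. Leaving out 1 library cost such a call in 21 fits and added one in 6, and the replicate block added 2. At 3 CPM, counting error limits single libraries.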
